A study of Mus musculus with 24 samples.

Results

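The 58 genes described here make the proteins that copy DNA and divide the cell: the cyclins and E2F factors of the G1/S step, the proteins that license and unwind replication origins, the fork and its nucleotide supply, and the kinases, motors and checkpoint proteins of mitosis. They were taken by name from the gene names of the array, where they are 58 of 34844 names, and each was represented by the probe with the highest mean over the 24 arrays. The series profiled sorted mouse lymphocytes, to set cells of different niches side by side. There were 6 transgenic samples from Foxn1-deficient (-/-) thymus, called tg: DP thymocytes, which carry both CD4 and CD8 (n = 4), and IgM- B cells (n = 2). Thymocytes of Foxn1 heterozygous (+/-) thymus, called wt, covered DN3 (double-negative stage 3, n = 3), DP (n = 3), SP4 (single-positive for CD4, n = 3) and SP8 (single-positive for CD8, n = 3). IgM+ (n = 3) and IgM- (n = 3) B cells came from fetal liver of wild-type mice, called FL. Foxn1 is the transcription factor that thymic epithelium needs to support T cells, so that every group from thymus carries at least 1 mutant allele and the FL groups carry none by their labels. The labels used here name neither the transgene of the tg mice nor an age, and since 1 label of the SP4 samples mentions SP8 as well, their group follows the title.

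Cells copy their genome once per division. In G1, ORC, Cdc6 and Cdt1 load the Mcm2-7 helicase on origins, E2F factors switch on the S phase genes, and the sliding clamp Pcna then holds the polymerases at the fork; the cyclin B partner Cdk1, with Plk1 and the Aurora kinases, drives mitosis, and the anaphase-promoting complex with Cdc20 and Ube2c ends it. In thymus and fetal liver these genes are known to mark the bursts of division that follow a productive rearrangement of the T cell receptor beta chain or of the immunoglobulin heavy chain. DP cells after that burst and SP cells are mostly resting.

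Levels are given as log2 signal minus the 75th percentile of the array, differences are on the same log2 scale with the standard error (SE) of limma's fit, and a gene is called where its p, adjusted over all genes tested by the Benjamini-Hochberg method, is under 0.05. A probe's level cannot be set against another probe's. Of the 58 members, 43 were well above background on all 24 arrays, 13 on some and 2, the cyclin Ccne2 and the chromosomal passenger kinase Aurkb, on none. Ccne2, Aurkb and the polymerase alpha subunit Pola1 (8 of 24 arrays) failed the filter on dim probes and 55 members were tested. On tg IgM- B 23 the share of probes well above background was 80.7% and the median processed signal 125, while the other 23 arrays had shares of 87.6% to 96.7%. Principal component 1 held 18.12% of the variance, and along it this array lay at 238.7, FL IgM+ B 21 at 115.9 and tg DP 4 at 46.5, with all others between -60.0 and 23.2. Summed markers of the sorted types separated the groups poorly. The summed linear level of 12 T lineage markers spanned 21.8 to 29.5 on the thymocyte arrays and 24.8 to 27.9 on the B cell arrays. That of 10 B lineage markers spanned 5.26 to 8.43 on thymocyte arrays and 6.18 to 13.3 on B cell arrays. Marker by marker, 9 of 10 B lineage markers were lower in wt thymocytes than in FL B cells, and 8 of 12 T lineage markers higher. The medians were -0.35 and 0.09, against 0.06 for all genes. No marker of either list was below background on every array of any group, and the only marker called in any comparison was Tcf7, a T lineage transcription factor, at 4.28 ± 0.64 in wt thymocytes against FL B cells (adjusted p = 0.0183). In such bulk samples, fewer cells of a type and less RNA per cell cannot be told apart. Whether replicates are different animals is not in the labels, and the p-values cover the spread among these samples only, which may be technical.

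Across the 8 groups few differences between members stood out from the spread of the arrays. The members' median SD over the 24 arrays was 0.68, against 0.52 for all genes tested. In the test of any difference among the 8 groups, limma's moderated F, 0 of the 55 members were called, against 0.196% of all genes (66 of 33599); at an unadjusted p under 0.05 there were 9 members and 13.6% of all genes. The members with the highest F were Pcna (adjusted p = 0.077), Mcm2 (adjusted p = 0.184), Birc5 (adjusted p = 0.232) and Plk1 (adjusted p = 0.248). The heat map of group means places the widest departures in the tg IgM- B column and in the rows of Mcm2, Mcm3 and Pcna.

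**Figure D1:**
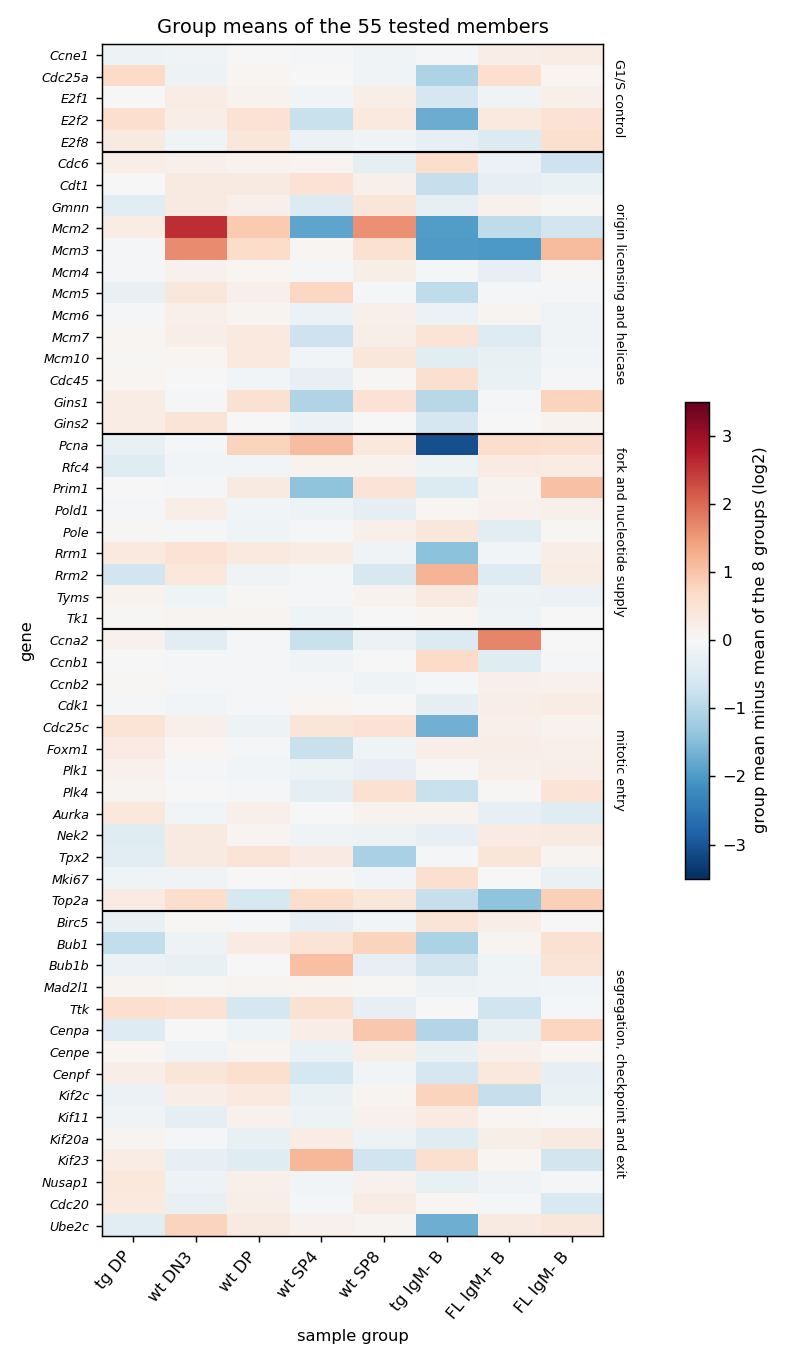
Heat map of the 55 tested members (rows, grouped by role) over the 8 sample groups (columns); colour is the group mean minus the mean of the 8 group means, in log2. The lowest cell is Pcna in tg IgM- B cells, and most other cells are near 0.

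In the G1/S group, E2f2, an activating E2F factor, was the member with the highest F. It measured -2.36, -1.93, -2.41 and -1.81 in tg DP cells, -2.34, -3.21 and -1.91 in wt DN3, -1.45, -2.80 and -2.34 in wt DP, -1.96, -3.49 and -5.00 in wt SP4 and -1.90, -2.88 and -2.37 in wt SP8. In B cells it measured -3.70 and -5.21 in tg IgM- B, -2.58, -3.07 and -1.50 in FL IgM+ B and -2.12, -2.82 and -1.66 in FL IgM- B. Both tg B arrays and 2 of the 3 SP4 arrays were below every other array. E2f1, its close relative, kept a narrower range, between -0.10 and 1.39 over the 24 arrays.

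Among the licensing and helicase genes, the probes of the Mcm2-7 helicase differed in how often they were detected. Mcm2 was well above background on 12 arrays, which included all wt DN3 and all wt SP8 arrays and no wt SP4 or tg IgM- B array. Its values were -3.97, -2.67 and -2.31 in wt DN3, -5.08, -2.49 and -6.31 in wt DP, -7.07, -7.36 and -7.79 in wt SP4, -4.25, -3.75 and -3.90 in wt SP8 and -7.65, -5.94, -5.16 and -2.46 in tg DP cells. B cells gave -7.65 and -7.39 in tg IgM- B, -4.87, -8.05 and -6.42 in FL IgM+ B and -5.17, -6.03 and -7.45 in FL IgM- B. The tg DP arrays alone spanned nearly the whole range of the probe. Mcm3 was well above background on 14 arrays, with -3.14, -1.93 and -3.67 in wt DN3, -4.59, -3.12 and -4.06 in wt DP, -5.88, -6.29 and -1.30 in wt SP4, -3.32, -5.51 and -3.29 in wt SP8 and -6.27, -3.30, -3.35 and -5.51 in tg DP cells. The B cell values were -5.83 and -7.26 in tg IgM- B, -7.31, -6.53 and -5.93 in FL IgM+ B and -4.00, -4.97 and -1.39 in FL IgM- B, so that no FL IgM+ B or tg IgM- B array reached the level of any FL IgM- B array. Mcm5 was well above background on every array. It measured -1.89, -1.41, -1.26 and -2.54 in tg DP, -1.41, -0.93 and -1.02 in wt DN3, -1.31, -1.25 and -1.44 in wt DP, -0.69, -0.25 and -1.41 in wt SP4 and -1.49, -1.76 and -1.51 in wt SP8. Its B cell values were -1.95 and -2.87 in tg IgM- B, -1.75, -0.94 and -2.06 in FL IgM+ B and -1.26, -1.70 and -1.71 in FL IgM- B. Mcm4 (SD 0.25 over 24 arrays) and Mcm6 (SD 0.31) had narrower spreads than Mcm2 (SD 1.90) and Mcm3 (SD 1.76), which were not well above background on all arrays; members dim on some arrays had SDs of 0.816 to 1.901, against a median of 0.558 for those detected on all 24, and no difference between subunits was tested.

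Pcna, the clamp of the fork, had a group order that was flat except at its lower end. The group means were -3.36 ± 0.92 in wt SP4, -3.64 ± 0.43 in wt DP, -3.81 ± 0.70 in FL IgM+ B, -3.86 ± 1.16 in FL IgM- B, -4.05 ± 0.40 in wt SP8 and -4.51 ± 0.84 in wt DN3 (SD, n = 3 each). The lowest were -4.69 ± 0.87 in tg DP (SD, n = 4) and -7.52 ± 0.20 in tg IgM- B cells (SD, n = 2). Neighbours in this order differed by less than their spread, except the last step from tg DP to tg IgM- B cells. The arrays gave -5.82, -4.88, -4.19 and -3.86 in tg DP, -4.85, -5.13 and -3.55 in wt DN3, -3.55, -3.26 and -4.11 in wt DP, -2.49, -4.33 and -3.25 in wt SP4 and -3.77, -4.51 and -3.88 in wt SP8. Prim1, the primase subunit that starts each new strand, measured -3.63, -2.88, -2.87 and -3.06 in tg DP, -3.00, -3.39 and -3.12 in wt DN3, -2.80, -3.23 and -2.41 in wt DP, -3.73, -3.88 and -5.97 in wt SP4 and -1.76, -2.86 and -3.36 in wt SP8. Among B cells it stood at -3.89 and -3.32 in tg IgM- B, -1.85, -3.29 and -3.89 in FL IgM+ B and -2.17, -1.93 and -2.22 in FL IgM- B. Its 3 SP4 arrays were below all SP8 and all wt DP arrays. Rrm1, the large subunit of ribonucleotide reductase, measured -1.61, -2.43, -2.09 and -2.12 in tg DP, -1.81, -1.29 and -2.58 in wt DN3, -2.04, -1.61 and -2.53 in wt DP, -2.15, -3.07 and -1.18 in wt SP4 and -2.05, -2.72 and -2.84 in wt SP8. Its levels in B cells were -3.49 and -4.20 in tg IgM- B, -2.68, -2.54 and -2.30 in FL IgM+ B and -2.63, -2.31 and -1.59 in FL IgM- B, and the tg IgM- B arrays were the lowest of all 24. Tk1, the thymidine salvage kinase, kept to 2.76 to 3.44 on its brightest probe (SD 0.15), while its other probes had SDs of 0.96 and 0.76.

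The classical proliferation markers overlapped between the wt thymocyte stages. Mki67, which codes for the Ki-67 antigen, measured -0.23, -0.61, -0.02 and 0.22 in tg DP, -0.12, -0.65 and 0.39 in wt DN3, -0.13, -0.06 and 0.22 in wt DP, 0.11, -0.44 and 0.37 in wt SP4 and -0.05, -0.13 and -0.19 in wt SP8. For B cells the arrays gave -0.29 and 1.38 in tg IgM- B, -0.37, 0.04 and 0.20 in FL IgM+ B and -0.11, 0.02 and -0.64 in FL IgM- B. The highest value belonged to tg IgM- B 23, the array with the lowest signal. Ccnb1, the mitotic cyclin, measured 0.65, 0.88, 0.78 and 1.27 in tg DP, 1.09, 1.12 and 0.28 in wt DN3, 1.24, 0.45 and 0.72 in wt DP, 0.72, 0.99 and 0.50 in wt SP4 and 1.49, 0.34 and 0.83 in wt SP8. B cell arrays read 0.64 and 2.41 in tg IgM- B, 0.98, 0.54 and -0.17 in FL IgM+ B and 0.98, 0.58 and 0.91 in FL IgM- B. Its groups overlapped throughout. Cdk1, its kinase, measured 0.38, 0.01, 0.12 and -0.07 in tg DP, 0.10, 0.25 and -0.10 in wt DN3, -0.08, 0.01 and 0.38 in wt DP, -0.08, 0.68 and 0.14 in wt SP4 and 0.02, 0.50 and -0.08 in wt SP8. In B cells it measured -0.15 and -0.16 in tg IgM- B, 0.20, 0.74 and 0.25 in FL IgM+ B and 0.22, 0.68 and 0.37 in FL IgM- B. Both tg IgM- B arrays lay below every other array for Cdk1, by a small distance, while wt DN3, DP, SP4 and SP8 overlapped for Mki67, Ccnb1 and Cdk1.

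Top2a, the topoisomerase that untangles sister chromatids, varied widely within most groups, though not in wt DP. It measured -3.49, -2.13, -2.44 and -0.01 in tg DP, -2.35, -0.83 and -1.89 in wt DN3, -2.64, -3.00 and -2.94 in wt DP, -2.60, -2.04 and -0.46 in wt SP4 and -1.70, -1.53 and -2.53 in wt SP8. The B cell values were -4.35 and -1.88 in tg IgM- B, -4.40, -3.00 and -3.72 in FL IgM+ B and -2.28, -1.63 and -0.51 in FL IgM- B. Plk1, the polo kinase of mitotic entry, was the opposite case, with an SD of 0.21 over all 24 arrays. It measured 2.47, 2.39, 2.41 and 2.14 in tg DP, 2.19, 2.18 and 2.05 in wt DN3, 2.09, 2.01 and 2.22 in wt DP, 2.07, 2.07 and 1.96 in wt SP4 and 1.73, 2.08 and 1.91 in wt SP8. Among B cells it stood at 2.24 and 2.23 in tg IgM- B, 2.36, 2.53 and 2.27 in FL IgM+ B and 2.33, 2.30 and 2.65 in FL IgM- B. All wt thymocyte arrays were below all FL B arrays.

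**Figure D2:**
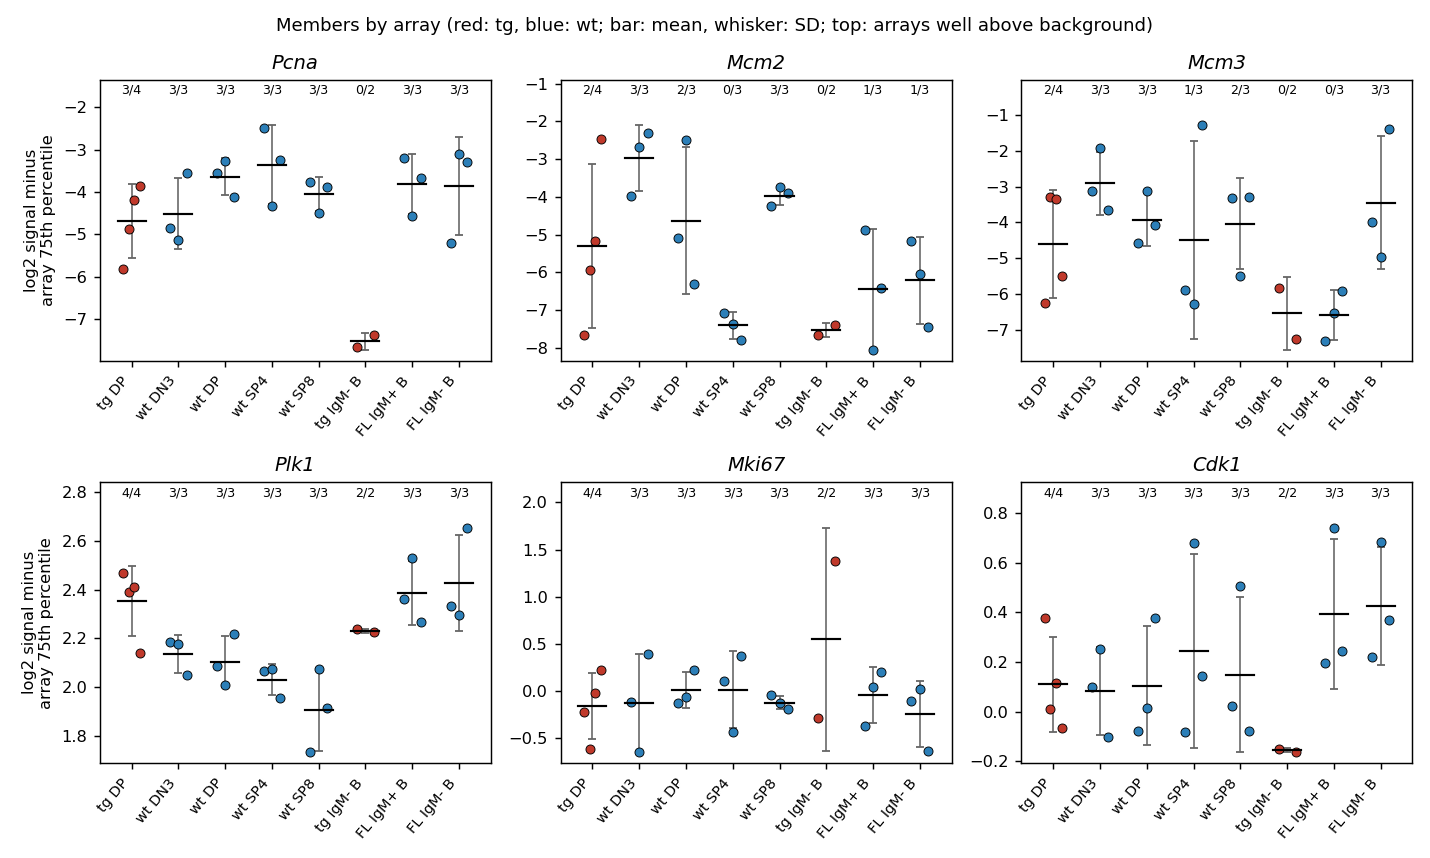
Levels of 6 members on each array (log2 signal minus the array's 75th percentile) in the 8 groups; points are arrays (red for tg, blue for wt and FL), bars are means, whiskers are SD, and the figures at the top give arrays well above background. Pcna stands at -7.66 and -7.38 in tg IgM- B cells, Mcm2 differs between wt SP4 and SP8, Mki67 overlaps between groups, and Cdk1 is lowest in tg IgM- B cells.

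Of the segregation and checkpoint genes, Birc5 (survivin), Ube2c (the ubiquitin carrier of the anaphase-promoting complex), Bub1b (the checkpoint kinase BubR1) and Kif23 (a motor of the central spindle) had the highest F. Birc5 measured -0.12, 0.33, 0.17 and 0.08 in tg DP, 0.22, 0.63 and 0.41 in wt DN3, 0.25, 0.38 and 0.27 in wt DP, 0.12, 0.13 and 0.00 in wt SP4 and 0.31, 0.27 and 0.26 in wt SP8. Its levels in B cells were 0.52 and 1.10 in tg IgM- B, 0.40, 0.86 and 0.60 in FL IgM+ B and 0.30, 0.54 and 0.31 in FL IgM- B. The 3 SP4 arrays were the lowest of the wt thymocytes. Ube2c measured -1.71, -0.35, -0.27 and -1.08 in tg DP, -0.12, 0.89 and 0.21 in wt DN3, -0.26, -0.39 and 0.23 in wt DP, -0.01, 0.12 and -1.02 in wt SP4 and -0.47, -0.14 and -0.52 in wt SP8. For B cells the arrays gave -1.06 and -3.30 in tg IgM- B, -0.63, -0.76 and 0.96 in FL IgM+ B and -0.14, -0.43 and 0.39 in FL IgM- B, with tg IgM- B 23 the lowest of all arrays. Bub1b measured -3.66, -3.33, -3.34 and -2.51 in tg DP, -2.74, -3.75 and -3.35 in wt DN3, -2.71, -3.67 and -2.57 in wt DP, -2.36, -2.28 and -1.20 in wt SP4 and -2.69, -3.08 and -4.09 in wt SP8. B cell arrays read -2.82 and -4.49 in tg IgM- B, -2.91, -3.99 and -2.57 in FL IgM+ B and -2.51, -2.49 and -2.69 in FL IgM- B. Kif23 measured -1.95, -1.72, -3.61 and -1.84 in tg DP, -2.96, -3.53 and -1.91 in wt DN3, -3.33, -3.15 and -2.38 in wt DP, -0.64, -1.40 and -2.05 in wt SP4 and -2.58, -3.62 and -3.52 in wt SP8. In B cells it measured -2.84 and -1.08 in tg IgM- B, -3.20, -3.05 and -1.14 in FL IgM+ B and -3.46, -2.82 and -3.21 in FL IgM- B. For Bub1b and Kif23 every SP4 array was above every wt DP and every SP8 array. Mad2l1, the checkpoint protein Mad2, was steady on its brightest probe, between 4.60 and 5.13. That probe had an SD of 0.14 over the arrays, against 0.58 and 0.69 for the gene's other probes.

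The comparison of IgM- B cells of tg thymus with those of fetal liver gave the only call of a member in the 9 comparisons. These groups differ at once in organ, Foxn1 genotype (-/- against wild type) and transgene, which cannot be told apart. Pcna fell in tg IgM- B cells, with -7.66 and -7.38, against -5.20, -3.10 and -3.30 in FL IgM- B cells, a difference of -3.66 ± 0.68 (adjusted p = 0.0473). All tg values lay below all FL values. The probe was not well above background on either tg array, so its level there is only bounded, and it was lower in tg cells by a bound of 2.57-fold. For such a bound, each dim array enters with the lowest signal well above background, or with the probe's own value where that is higher, and the mean of these is set against the mean of the bright group. A bound of this kind carries no error and was computed in the main setting only, so it is not a proven minimum. With the background corrected by normexp, the Pcna difference was smaller, at -0.60. The call covers 1 of 55 members, beside 0.149% of all genes called (50 of 33601) with 0.131% called lower and 0.0179% higher. The probe lies on mm9 chr2:132075022-132075054, on the minus strand, over 33 of its 60 bases; the sources used here do not say whether this or any other probe lies in coding exons or untranslated regions. The probe is shown because the call rests on it alone, with its first 30 bases in lower case since no part of it stands out:
Pcna: ctgctttacaaatactggtgattttccatc

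The other members of this comparison were not called. The G1/S genes were all 5 lower in tg cells, with a median of -0.86, where E2f2 differed by -2.26 ± 0.70 (adjusted p = 0.16). Of the licensing genes 10 of 13 were lower. Mcm3, well above background on none of the 2 tg and all 3 FL arrays, was lower by a bound of 3.42-fold (adjusted p = 0.249), while the origin loader Cdc6 differed by 1.34 ± 0.46 (adjusted p = 0.176), with -2.77 and -2.00 in tg and -3.88, -3.92 and -3.37 in FL cells. The helicase activator Cdc45 differed by 0.62 ± 0.29 (adjusted p = 0.276), with 0.23 and 1.48 in tg cells and 0.17, 0.42 and 0.10 in FL cells. Among later genes the differences were -1.67 ± 0.48 for Rrm1 (adjusted p = 0.14), -2.12 ± 0.61 for Ube2c (adjusted p = 0.139), 0.43 ± 0.19 for Birc5 (adjusted p = 0.264) and 0.79 ± 0.40 for Mki67 (adjusted p = 0.317). The direction of Mki67 and Birc5 turned when all their probes were averaged, to -0.81 and -1.40. The other Cdc6 probe went the opposite way to the brightest, with -1.08 ± 1.58. The kinase Bub1, well above background on no tg array, was lower by a bound of 1.17-fold (adjusted p = 0.373).

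Taken over the list, 38 of 55 members were lower in tg cells, with a median difference of -0.31 against -0.21 for all genes, of which 36.8% were higher. At an unadjusted p under 0.05 there were 13 members (23.6%), against 17.1% of all genes. Tg values lay below all FL values for 19 members (34.5%) and above them for 2 (3.64%), against 23.9% and 9.03% of all genes. On the median of the arrays' signals in place of the 75th percentile, the member median was -0.01 and the all-gene median 0.09. Pcna kept its call under 4 of 17 alternatives, which leave out the fit of only the groups compared, where no member was called. With the background corrected by normexp the Pcna difference was -0.60 ± 0.34 (adjusted p = 0.437). The difference was -3.27 without FL IgM- B 17 (adjusted p = 0.149), -3.37 without FL IgM- B 18 (adjusted p = 0.156) and -3.80 without tg IgM- B 23 (adjusted p = 0.28), and the adjusted p ran from 0.0124 to 0.908 over all alternatives. Without tg IgM- B 22, which leaves tg IgM- B 23 alone and assumes that it varies like the other groups, 11 members and 17.2% of all genes were called, and without tg IgM- B 23 no member was. Other cell markers moved with the comparison. The summed level of 10 B lineage markers was 7.21 to 7.56 in tg and 7.89 to 13.3 in FL cells, that of 8 erythroid markers 3.61 to 4.12 and 4.22 to 4.56 (Tfrc on no tg array), that of 5 hepatocyte markers 0.465 to 0.870 and 0.885 to 1.43 (Afp on no tg array), and that of 8 myeloid markers 223 to 315 and 175 to 214 (S100a8 on no tg array). Such linear sums are carried by their brightest probes. Marker by marker, 6 of the 8 myeloid markers were lower in tg cells and 2 higher. Their median difference was -0.61, against -0.21 for all genes. The sums of 12 T lineage markers, 26.3 to 27.4 in tg and 25.2 to 27.9 in FL cells, overlapped. Those of 6 thymic epithelium markers did so too, with 21.8 to 22.7 in tg and 18.8 to 23.7 in FL cells. Taken singly, 8 of 12 T lineage, 7 of 10 B lineage and 5 of 6 thymic epithelium markers were lower in tg cells. Their medians were -0.32, -0.77 and -0.27. Of the erythroid markers 6 of 7 tested were lower, and of the hepatocyte markers 4 of 5. None of these marker sums was tested. Their part in the result was not tested.

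**Figure D3:**
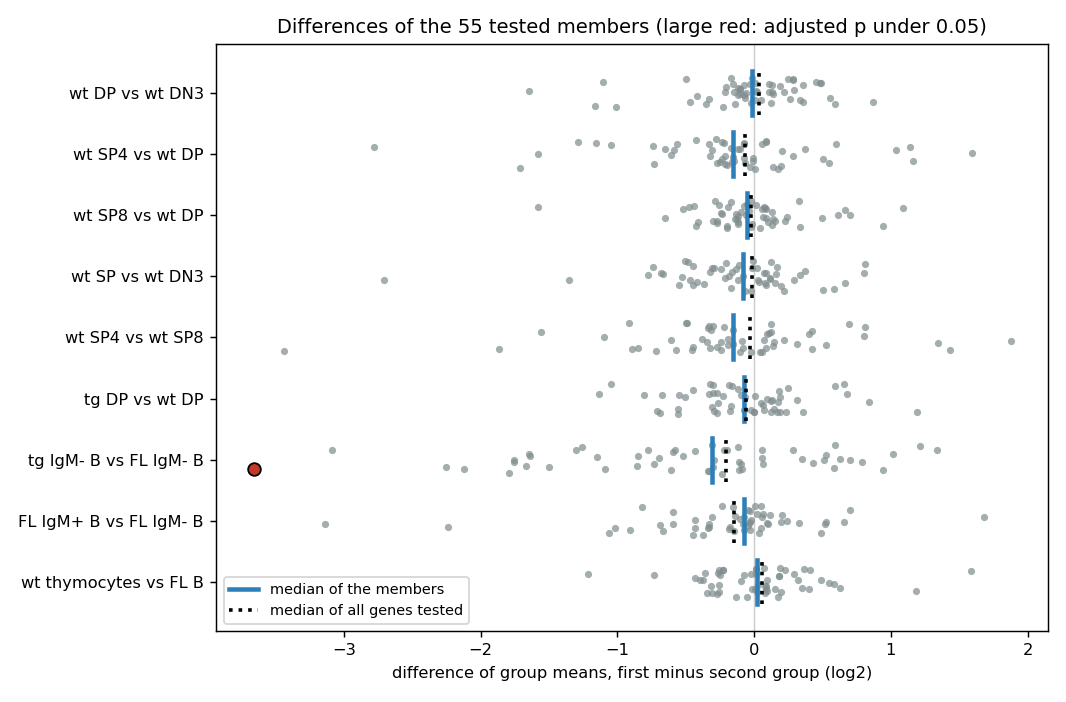
Differences of the 55 tested members (log2, first minus second group) in each of 9 comparisons; points are members, blue lines their median, dotted lines the median of all genes tested, and the large red point is the call of Pcna at -3.66. In every comparison the medians of the members and of all genes are close to each other relative to the spread of the points.

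DP thymocytes of tg thymus were set against wt DP thymocytes, which come from the same organ but carry 1 intact Foxn1 allele. The groups also differ in the transgene, which cannot be told apart from the Foxn1 genotype. No member was called among 0% of all genes, and by unadjusted p under 0.05 there were 0 members and 3.28% of all genes. Pcna measured -5.82, -4.88, -4.19 and -3.86 in tg and -3.55, -3.26 and -4.11 in wt cells, a difference of -1.04 ± 0.57 (adjusted p = 1), with overlapping arrays. Plk1 differed by 0.25 ± 0.13 and the spindle kinase Ttk by 1.19 ± 0.82 (adjusted p = 1 for both). Ttk gave -5.23, -2.70, -2.28 and -1.27 in tg and -4.61, -2.88 and -4.68 in wt cells. The kinesin Kif20a differed by 0.36 ± 0.31, Kif23 by 0.68 ± 0.59, Bub1 by -1.13 ± 0.80, Ube2c by -0.71 ± 0.51 and Mcm5 by -0.45 ± 0.33, all with adjusted p = 1. The direction of Kif23 turned when its probes were averaged (-0.32). Of the mitotic entry genes 10 of 13 were higher in tg cells and of the licensing genes 10 of 13 lower, with medians of 0.17 and -0.28 beside an all-gene median of -0.06. The first count ranged from 7 to 10 over 11 alternatives chosen after the data were seen. In no member did the arrays of the groups fail to overlap, against 2.64% of all genes higher and 4.24% lower. Kif20a gave -0.30, -0.08, -0.60 and -0.16 in tg and -0.45, -0.79 and -0.69 in wt cells. Bub1 gave -6.78, -6.02, -6.14 and -6.60 in tg and -4.30, -4.99 and -6.47 in wt cells. If the tg arrays named 6, 6A and 6B, and the wt arrays 3 and 3A, are repeats, each group holds 2 samples.

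The difference between tg and wt DP cells was also set against that between tg and FL IgM- B cells, by subtracting the second from the first. The terms are unlike: the first stays within thymus, with Foxn1 +/- controls, while the second crosses from thymus to fetal liver and has wild-type controls. Genotype and transgene cannot be told apart in the first, nor organ, genotype and transgene in the second. No member was called, beside 0.00595% of all genes (2 of 33600), and 8 members (14.5%) and 9.68% of all genes had an unadjusted p under 0.05. For Pcna the adjusted p was 0.396, and since its probe was well above background on 0 of 2 tg IgM- B arrays the size is not measured. The first minus the second difference was 1.66 ± 0.62 for Rrm1 (adjusted p = 0.431), 2.33 ± 0.92 for E2f2 (adjusted p = 0.453) and -0.61 ± 0.25 for Birc5 (adjusted p = 0.468). Without tg IgM- B 22, 4 members (Birc5, Cdc45, Kif20a and Mki67) and 9.46% of all genes passed.

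Along wt thymocyte development, from DN3 through DP to the SP stages, no member was called in any of 5 comparisons, nor was any other gene (0% in each). At an unadjusted p under 0.05 there were 0 members and 2.07% of all genes for DP against DN3, 3 members and 6.44% for SP4 against DP, 1 member and 2.15% for SP8 against DP, and 2 members and 2.87% for both SP groups against DN3. For DP against DN3, the members furthest from 0 relative to their SE included Kif11 (0.49 ± 0.27), Pcna (0.87 ± 0.61), Mcm2 (-1.65 ± 1.08, well above background on 2 of 3 DP arrays), Top2a (-1.16 ± 0.79) and Pold1 (-0.33 ± 0.23), each with adjusted p = 1. Kif11, the motor that pushes spindle poles apart, gave -1.14, -1.52 and -1.57 in wt DP and -1.78, -1.91 and -2.02 in wt DN3, without overlap. The spindle kinase Ttk gave -4.61, -2.88 and -4.68 in wt DP and -3.87, -3.40 and -1.59 in wt DN3. Nusap1, which bundles spindle microtubules, gave 0.32, 0.71 and 0.46 in wt DP and 0.12, 0.07 and 0.25 in wt DN3. Cdc20, the activator of the anaphase-promoting complex, gave -1.05, -0.51 and -0.24 in wt DP and -1.02, -1.40 and -0.83 in wt DN3. In this comparison the groups did not overlap for 2 members higher (3.64%, against 6.34% of all genes) and 1 lower (1.82%, against 5.53%). Between DP and DN3 the members split evenly, 27 higher (49.1%, against 55.5% of all genes) and 28 lower, with a median of -0.02 against 0.03 for all genes.

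SP4 cells against DP cells gave -1.71 ± 0.54 for Prim1 (adjusted p = 0.552) and 1.59 ± 0.63 for Kif23 (adjusted p = 0.686). Mcm2 was well above background on 0 of 3 SP4 and 2 of 3 DP arrays, and all SP4 values lay below all DP values (adjusted p = 0.681); no fold is given, since 1 DP array was dim as well. Bub1b differed by 1.04 ± 0.50 (adjusted p = 0.774) and the kinetochore protein Cenpf by -1.15 ± 0.57 (adjusted p = 0.787), with -2.06, -2.59 and -2.28 in SP4 and -1.11, -1.06 and -1.30 in DP cells. Kif20a gave -0.54, 0.18 and -0.07 in SP4 and -0.45, -0.79 and -0.69 in DP cells. In all, 38 of 55 members were lower in SP4 cells, with a median of -0.16 against -0.07 for all genes. The members higher in SP4 cells came to 30.9%, against 42.7% of all genes. Of the 13 licensing genes 11 were lower (9 to 11 over 11 alternatives). Arrays did not overlap for 8 members lower (14.5%, against 9.75% of all genes) and 3 higher (5.45%, against 5.64%). All wt DP arrays were hybridised on slide 2 and the SP4 and SP8 arrays on slides 1 and 3, so that no value within a slide could be had.

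For SP8 cells against DP cells, the spindle assembly factor Tpx2 differed by -1.58 ± 0.70, with -1.71, -2.48 and -3.18 in SP8 and -1.44, -0.07 and -1.10 in DP cells, and the centromeric histone Cenpa by 1.09 ± 0.78, with -3.21, -1.77 and -0.98 in SP8 and -3.68, -3.73 and -1.83 in DP cells. Both had adjusted p = 1. Tpx2 arrays did not overlap between the groups. Pole, the leading-strand polymerase, gave 1.14, 1.11 and 1.10 in SP8 and 0.75, 0.76 and 0.85 in DP cells. Of the members 23 were higher (41.8%, against 46.8% of all genes) and 32 lower. Groups did not overlap for 3 members higher (5.45%, against 4.91% of all genes) and 4 lower (7.27%, against 5.77%). The phosphatase Cdc25c gave -1.34, -1.78 and -1.41 in SP8 and -2.05, -2.26 and -2.32 in DP cells and differed by 0.70 ± 0.70 and by -0.11 with slide as a block.

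Both SP groups against DN3 gave -0.50 ± 0.20 for Pold1, the catalytic subunit of polymerase delta, and a lower mean for Mcm2, each with adjusted p = 1. The size of the Mcm2 difference is not measured, since its probe was well above background on 0 of 3 SP4 arrays, against 3 of 3 SP8 and 3 of 3 DN3 arrays. Pold1 measured -1.44, -1.23 and -1.37 in SP4 and -1.28, -1.43 and -1.76 in SP8 cells, against -1.10, -0.41 and -1.24 in DN3 cells. Of the licensing genes 11 of 13 were lower in SP cells, a count that stayed at 10 or 11 over 11 alternatives. Their median was -0.21, beside -0.02 for all genes. Bub1 gave -5.32, -4.07 and -5.77 in SP4 and -3.94, -6.24 and -4.09 in SP8 cells, against -6.51, -4.39 and -6.21 in DN3 cells. No member had groups that did not overlap, against 0.798% of all genes higher and 1.16% lower.

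SP4 and SP8 cells, the products of CD4 and CD8 lineage choice, differed in the mean of Mcm2, which was well above background on 0 of 3 SP4 and 3 of 3 SP8 arrays and lower in SP4 cells by a bound of 2.56-fold (adjusted p = 0.753). Its probe lies on mm9 chr6:88833619-88833678, minus strand, and begins as follows; it is shown because Mcm2 was detected on all arrays of 1 SP group and on none of the other:
Mcm2: cccctttagacaaagagcaacttagaagta

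Prim1 differed by -1.86 ± 0.54 (adjusted p = 0.726), Kif23 by 1.88 ± 0.63 (adjusted p = 0.812), Bub1b by 1.34 ± 0.50 (adjusted p = 0.848) and Mcm5 by 0.80 ± 0.35 (adjusted p = 0.952). Gins1, a subunit of the active helicase, gave -3.70, -4.54 and -7.86 in SP4 and -3.53, -2.74 and -5.14 in SP8 cells. There were 5 members (9.09%) and 5.12% of all genes with an unadjusted p under 0.05. Arrays did not overlap for 9 members lower (16.4%, against 6.68% of all genes) and 3 higher (5.45%, against 3.98%). The median over the members was -0.16, beside -0.03 for all genes, and within slide 3, which holds 2 SP4 and 3 SP8 arrays, it was -0.09. The member medians of each array show the 3 SP4 arrays below 0 and 2 of the 3 SP8 arrays above it.

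**Figure D4:**
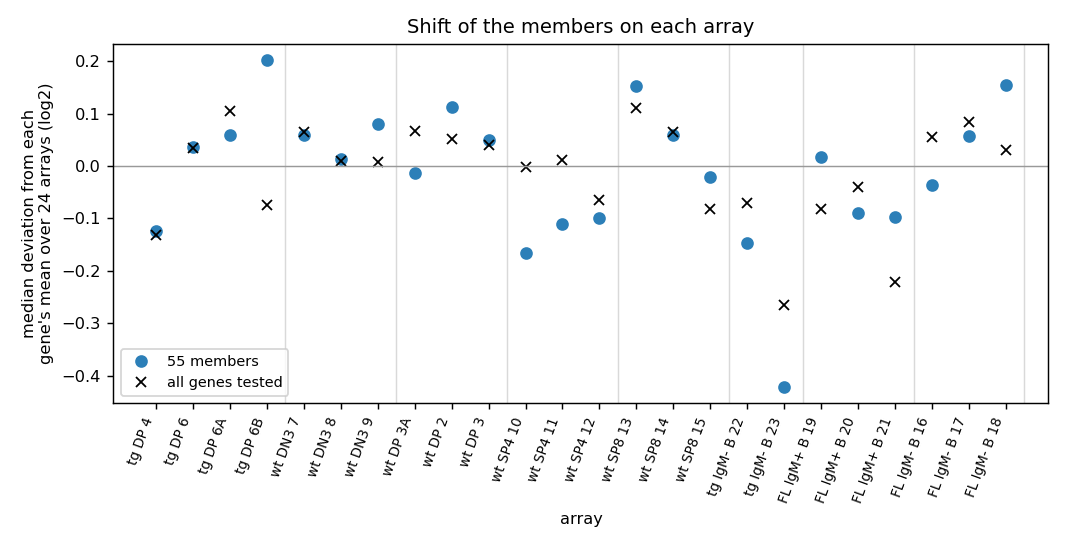
Median deviation of the 55 tested members (blue points) and of all genes tested (crosses) from each gene's mean over the 24 arrays, in log2, for each array. Tg IgM- B 23 lies lowest, at -0.42 for the members and -0.27 for all genes, and the SP4 arrays lie between -0.17 and -0.10 for the members.

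In fetal liver, IgM+ B cells were set against IgM- B cells, the step at which a pre-B cell becomes an immature B cell with its receptor on the surface. No member was called (0% of all genes), and 3 members (5.45%) and 7% of all genes had an unadjusted p under 0.05. Top2a gave -4.40, -3.00 and -3.72 in IgM+ and -2.28, -1.63 and -0.51 in IgM- cells, a difference of -2.24 ± 0.79 (adjusted p = 0.592) with no overlap. Mcm3 was well above background on 0 of 3 IgM+ and 3 of 3 IgM- arrays and lower in IgM+ cells by a bound of 4.28-fold (adjusted p = 0.628). Ccna2, the cyclin of S phase and G2, went the other way, with -2.26, -1.90 and -2.55 in IgM+ and -4.57, -3.54 and -3.65 in IgM- cells, a difference of 1.68 ± 0.77 (adjusted p = 0.697). Pole gave 0.83, 0.48 and 0.30 in IgM+ and 0.88, 1.04 and 0.99 in IgM- cells, a difference of -0.43 ± 0.23 (adjusted p = 0.744). Groups did not overlap for 1 member higher (1.82%, against 2.11% of all genes) and 4 lower (7.27%, against 11.3%). Birc5 differed by 0.24 ± 0.17 and Cdc6 by 0.53 ± 0.41 on the brightest probes, and by -0.48 and -0.63 over all their probes. Of all members 20 were higher (36.4%, against 34.1% of all genes) and 35 lower. The member median was -0.08 against -0.14 for all genes, and it turned to 0.03 under quantile normalization.

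Wt thymocytes and FL B cells differ at once in lineage, organ and Foxn1 genotype (+/- against wild type), which cannot be told apart. All 12 wt thymocyte arrays against the 6 FL B arrays gave calls for 0.205% of all genes (69 of 33599) and for no member, with 0.0804% of all genes called higher and 0.125% lower. The nearest was Plk1, whose difference of -0.36 ± 0.09 had an adjusted p of 0.0807, with no overlap between 12 and 6 arrays, seen in 0.304% of all genes for that direction. It passed with normexp background correction (-0.41 ± 0.09, adjusted p = 0.0428). Ccna2 differed by -1.22 ± 0.47 (adjusted p = 0.263), the mitotic cyclin Ccnb2 by -0.25 ± 0.10 (adjusted p = 0.273), Mad2l1 by 0.17 ± 0.08 (adjusted p = 0.367) and Mcm2 by 1.59 ± 0.66 (adjusted p = 0.303). Mcm2 was dim on 4 of the 12 thymocyte and 4 of the 6 FL B arrays, which limits that size. Ccnb2 lay between -0.97 and -0.51 in wt thymocytes and between -0.64 and -0.21 in FL B cells, and Mad2l1 between 4.84 and 5.12 in wt thymocytes and between 4.69 and 4.96 in FL B cells, both with overlap. At an unadjusted p under 0.05 there were 8 members (14.5%) and 13.3% of all genes. Of the licensing genes 12 of 13 were higher in thymocytes, with a median of 0.29 beside 0.06 for all genes, but 3 of 13 with slide as a fixed block, where Mcm2 was at -1.85 ± 1.76 and Cdc6 at -1.004 ± 0.47. Only slide 1 holds arrays of both sides, 1 SP4 and 1 IgM+ array, and there the member median was -0.06.

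The further cell cycle genes outside the members, 64 of 66 tested, included 1 call. In tg against FL IgM- B cells 41 of 64 were lower, with a median of -0.45, against -0.21 for all genes, of which 36.8% were higher. In this comparison 1 gene was called, beside 0.131% of all genes called lower: Cks2, the small subunit of cyclin-dependent kinases, averaged -6.26 ± 1.47 in tg (SD, n = 2) and -2.90 ± 0.15 in FL cells (SD, n = 3), a difference of -3.36 ± 0.64 (adjusted p = 0.0489), well above background on 1 of 2 tg and 3 of 3 FL arrays. The 50 calls over all genes in this comparison came to between 0 and 22 under the alternatives, except that there were more than 50 with slide as a fixed or a random block and 5789 without tg IgM- B 22. The other comparisons called none of them. Cks2 (adjusted p = 0.0668), the clamp loader subunit Rfc5 (adjusted p = 0.127) and the cohesin protease separase, Espl1 (adjusted p = 0.128), had the highest F. Of the brakes and G1 drivers 20 of 21 were tested and none was called in a comparison. In tg against FL IgM- B cells 14 of these 20 were lower, with a median of -0.69, against -0.21 for all genes. The highest F among the brakes and G1 drivers belonged to Cdk4, the partner of the D cyclins (adjusted p = 0.243), the retinoblastoma gene Rb1 (adjusted p = 0.349) and the antiproliferative Btg1 (adjusted p = 0.417). Cdk4 averaged -1.22 ± 0.17 in wt DP and -0.04 ± 0.57 in wt DN3 cells (SD, n = 3 each), a difference that was not called. Its other group means were -1.80 in tg IgM- B, -1.53 in FL IgM+ B, -1.04 in tg DP, -0.942 in FL IgM- B, -0.935 in wt SP4 and -0.62 in wt SP8.

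The mean over the 55 members was lowest in tg IgM- B cells (-1.90) and lay between -1.60 and -1.38 in the 7 other groups. By array it was -1.70 on tg IgM- B 22 and -2.10 on tg IgM- B 23, against -1.76 on tg DP 4. All genes were low on these tg IgM- B arrays too, with median deviations of -0.07 and -0.27. The genes outside the list whose 8 group means followed the members' mean most closely were Piwil2 (Pearson r = 0.991), an unnamed transcript of chromosome 4 (r = 0.990), Dcst1 (r = 0.988), Olfr1394 (r = 0.987) and 4933438K21Rik (r = 0.987). These r describe 8 group means that share their arrays.

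How far a member's level rests on its probe could be read from the 17 members with several probes. Over the 24 arrays the 29 pairs of probes of the same gene had a median Pearson r of 0.12, 21 pairs were under 0.3 and 5 over 0.5. All pairs share the same arrays and labelled samples. The highest r, 0.94, belonged to the Mcm3 probes, at mm9 chr1:20793136-20793195 and chr1:20793119-20793178 on the minus strand, which overlap by 43 bases with 42 letters in common. Of the Cdk1 probes, those at chr10:68801053-68801112 and chr10:68801072-68801131 share 41 bases and had r = 0.59, and neither followed the brightest probe at chr10:68799513-68799572 (r = 0.00 and 0.12). The overlapping Cdk1 probes were well above background on only 5 and 4 arrays, against 24 for the brightest, which limits what their r can show. The first 30 bases of the Mcm3 and Cdk1 probes are shown to set overlapping against separate probes, with capitals for letters that both overlapping probes hold:
Mcm3, brightest probe: caaggttggattggagaAAGCTTTCTTTGC
Mcm3, other probe: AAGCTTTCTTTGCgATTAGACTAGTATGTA
Cdk1, brightest probe: atacactaaaaatttgggtagccaggaggt
Cdk1, another probe: AACTTAATTAACATGTAAATATTATTCCAT
Cdk1, further probe: ttcttaatttcctacgtatAACTTAATTAA

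Mki67 and Birc5 are shown because their probes gave opposite directions in tg against FL IgM- B cells. Other members had probes that split there too, among them Cdc6, Ccne1 and Foxm1. On the brightest and the other probe Cdc6 gave 1.34 ± 0.46 and -1.08 ± 1.58, with r = -0.08 between them. Ccne1 gave -0.30 ± 0.27 and 1.32 ± 1.31, and Foxm1 0.06 ± 0.57 and -1.25 ± 0.85. The brightest Mki67 probe (chr7:142881591-142881650, minus strand) gave 0.79 ± 0.40 and the other (chr7:142884764-142884823) -2.41 ± 0.91, with r = -0.13 between them. The 3 Birc5 probes, at chr11:117714057-117714116, chr11:117711112-117711171 and chr11:117716978-117717037 on the plus strand, gave 0.43 ± 0.19, -1.50 ± 0.74 and -3.12 ± 1.45. None of these differences was called, and neither was any of the 77 member probes when each was tested on its own.
Mki67, brightest probe: atactactgctactgcctgagtttaaggaa
Mki67, other probe: cagtgaacctaagccaagggtaactcgtgg
Birc5, brightest probe: tcttgaaactggacagacagagagccaaga
Birc5, another probe: tgatttggcccagtgttttttctgctttaa
Birc5, further probe: tgctgataattttgtcctgatgagttttcc

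**Figure D5:**
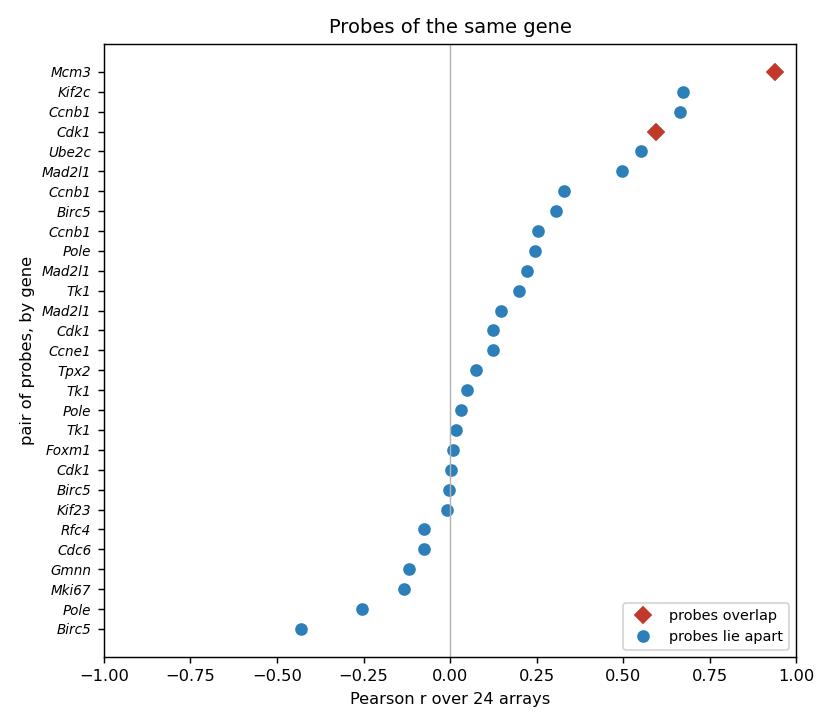
Pearson r over 24 arrays for each of the 29 pairs of probes of the same member (rows), with red diamonds for the 2 pairs whose probes overlap and blue circles for the others. The overlapping Mcm3 pair lies at 0.94 and most other pairs lie near 0.

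The members' brightest probes lie on 17 chromosomes, with 10 on chromosome 2, and their GC content had a median of 43.3%, equal to that of all probes, and ran from 15% to 55%.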

How the data were processed

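Each sample was hybridised to 1 Agilent single-colour array after the SuperAmp amplification named in the labels' protocols. The deposited spot values are intensities, per the file headers from Feature Extraction 10.7.3.1, with probe positions in build mm9. The deposited value table of the series holds log2 values of the same arrays; its columns have medians of 7.93, follow each array's own log2 signals and are not centred per gene, and it served as an alternative. The program behind it is not named in the labels used here.

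Levels were computed as the log2 processed signal of each spot less the 75th percentile of that array. Control spots (3671 of 62976) were dropped, 3099 values with outlier flags set missing, spots of a probe averaged, and the brightest of a gene's probes kept. A gene was tested (33603 in all) where all arrays of some group had 1 of its probes well above background. limma 3.58.1 in R 4.3.3 (lmFit, eBayes) was fitted to group means of all 24 arrays, and checked on simulated data. Array numbers limit the precision. Members, roles and gene lists were chosen with earlier results of these data known. All 58 members could be named; values per array were given for 8 fixed members, for the 12 with the highest F, and for members among the 4 strongest in each direction of a comparison. Genes of other lists were named where called or among the 3 with the highest F. Alternatives covered background, normalization, value table, filter, probe rule, slide, repeats, array weights and arrays left out; tests of single probes and role counts across settings were added after the data were seen.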

Additional observations from a re-analysis of the deposited data

Results flagged for a closer look

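Only tg DP, with 4 arrays, is large enough for the test of a single outlying array (Dixon's ratio), and 2 of 58 members stood out there; chance does so in about 1 in 20 groups. Gmnn, the geminin that blocks re-licensing of origins, was at -4.20 on tg DP 4, with the other tg DP arrays between -1.63 and -1.37. Kif23 was at -3.61 on tg DP 6A, with the others between -1.95 and -1.72. Of the tg DP arrays, 4 was on slide 1 and stood apart on principal component 1, while 6, 6A and 6B were on slide 2. If the arrays named 6, 6A and 6B are repeats, the test does not have 4 independent arrays.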

How the results depend on the processing

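Nearly all members had an adjusted p far above the threshold, so unchanged calls say little about stability. The only member called, Pcna, lost its call under 13 of 17 alternatives, and also with only the groups compared, which the 17 leave out. Of 429 recomputed counts and medians of the comparisons, 397 stayed close to the reported value and 32 moved; of 514 recomputed differences of single members, 491 stayed, 13 lost a call, 1 gained a call and 9 changed sign. For tg against FL IgM- B cells, the count of called members (1) was 0 under normexp, quantile normalization, the array median, the authors' log2 value table, no filter, all probes averaged, averaged title numbers, array weights, without the 3 arrays standing apart, with only the groups compared and with every probe on its own. It lay between 0 and 11 when single arrays were left out, where the counts of all genes ran from 6 to 5789. All genes called numbered 50 in the main setting, 8 under normexp, quantile normalization and the value table, 14 under the array median, 12 with no filter, 22 with all probes averaged, 10 with averaged title numbers, 7 without the 3 arrays standing apart, 18 probes on their own, and 0 with array weights and with only the groups compared. The member median there was -0.12 under normexp, -0.14 under quantile normalization and the value table, -0.01 under the array median, -0.52 with all probes averaged and -0.18 without the 3 arrays standing apart, and -0.48 to -0.18 with single arrays left out. Pcna gave -3.38 (quantile, adjusted p = 0.104), -3.36 (array median, 0.0661), -3.38 (value table, 0.104), -3.66 (no filter, 0.0525), -3.66 (all probes averaged, 0.0511), -3.66 (title numbers, 0.0799), -3.65 (array weights, 0.908) and -3.80 (3 arrays left out, 0.172), -4.32 to -3.27 with single arrays left out, and kept its call with slide as a fixed or random block.

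For FL IgM+ against IgM- B cells the member median was 0.028 under quantile normalization, 0.029 under the value table, 0.078 under the array median and -0.18 with all probes averaged. For thymocytes against FL B cells 1 member (Plk1) was called under normexp, 0 to 1 with single arrays left out (Cdc6 without FL IgM+ B 19), and the median was -0.13 with slide as a fixed block. In the tg DP less tg IgM- B difference 0 to 4, and in the test of 8 groups 0 to 2 (Birc5 and Ube2c, without tg IgM- B 22, with 8.84% of all genes), members were called with single arrays left out. The sign turned with all probes averaged for Kif23 in tg DP (-0.32), Mki67 (-0.81) and Birc5 (-1.40) in tg IgM- B and Cdc6 (-0.63) and Birc5 (-0.48) in FL IgM+ B cells, and with slide as a fixed block for Cdc25c in SP8 (-0.11), Cdc6 in FL IgM+ B (-0.14), and Cdc6 (-1.004) and Mcm2 (-1.85) in thymocytes. The cause was not tested. No paired analysis was possible because the groups compared share no replicate numbers. Members well above background on few arrays, such as Mcm2 and Mcm3, are limited by signal over background.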
